A study of Mus musculus with 12 samples.

Results

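The 10 genes described here encode cytosolic and mitochondrial heat shock proteins of the mouse: Hspa8, Hspa1a, Hspa1b, Hsph1, Dnaja1, Dnajb1, Hsp90aa1, Hsp90ab1, Hspb1 and Hspd1. They were taken from the deposited count table as the rows whose Ensembl identifier maps to these symbols, and are 10 of its 56980 gene rows. No threshold on their values was used, but the set was named with earlier results of these data known. All 10 were among the 19152 genes tested. Bulk RNA sequencing libraries came from the hippocampus of 12 male mice, 3 in each of 4 groups. The groups were Trem2-KO at 3 months, App-KI at 3 months, Trem2-KO at 9 months and App-KI at 9 months. App-KI mice carry the knocked-in NL-G-F allele of App, humanised and with familial Alzheimer mutations, which leads to amyloid plaques. Trem2-KO mice carry the same knock-in and a knockout of Trem2, a microglial receptor. Every group therefore has the knock-in, and no mice with wild type App were analysed here, so a value in App-KI mice is not one of an amyloid-free hippocampus. The labels name no batch and do not say whether the genotypes were littermates.

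Heat shock proteins are chaperones, which hold, fold or refold other proteins. HSP70 proteins bind unfolded stretches and are loaded by J-domain proteins and reset by nucleotide exchange factors such as HSP110. HSP90 proteins take over clients at a later stage, small heat shock proteins keep unfolded proteins from clumping, and the HSP60 chaperonin folds proteins inside mitochondria. Heat shock factor 1 drives many of these genes through heat shock elements, inverted repeats of the unit GAA, and neurons hold large amounts of the constitutive forms.

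The element is shown here because it is the known common control sequence of the group. Promoter windows from RefSeq (build GRCm38.p6, 250 bases upstream of a start site) were found for 7 of the 10 genes, and those of Hspa8, Hsp90aa1 and Hsp90ab1 were not used. The letters GAANNTTC or TTCNNGAA, which are each palindromic and so cover both strands, lay upstream of 6 of the 7 genes, against 14.5% of the 27025 genes in the table. A gene was counted for a motif if any of its windows matched. By window, 7 of the 12 windows of the 7 genes held these letters, against 12.8% of all 32851 windows. A run of 3 alternating units GAA and TTC, each 2 bases from the next and so holding overlapping matches of the shorter word, lay upstream of 1 of the 7, Hspd1, against 0.514% of genes. A CCAAT box, searched as CCAAT or ATTGG, lay upstream of 5 of the 7, against 37.5%. The motifs were chosen after the expression values were known. The matches with 15 bases on each side follow, 5′ to 3′ on the gene's strand, with the matched letters in capitals.
Hspd1 (chr1:55088044-55088091, minus strand): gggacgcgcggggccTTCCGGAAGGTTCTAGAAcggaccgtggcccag
Dnaja1 (chr4:40722329-40722366, plus strand): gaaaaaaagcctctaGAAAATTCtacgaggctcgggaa
Hspb1 (chr5:135887787-135887844, plus strand): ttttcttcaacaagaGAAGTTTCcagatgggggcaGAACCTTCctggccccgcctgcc
Hsph1 (chr5:149636347-149636384, minus strand): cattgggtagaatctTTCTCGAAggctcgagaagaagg
Hspa1a (chr17:34972238-34972275, minus strand): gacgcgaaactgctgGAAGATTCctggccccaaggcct
Hspa1b (chr17:34959320-34959357, minus strand): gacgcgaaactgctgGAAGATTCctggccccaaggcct

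The stretches of Hspa1a and Hspa1b are identical, and their full upstream windows differ at 3 of 250 bases. Hspd1 has 3 overlapping matches in a row, Hspb1 has 2 apart from each other, and the other genes printed have 1. The letters were not found in the window of Dnajb1. A match is a description of the sequence and was not tested for binding.

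Library depth ran from 14627892 to 24594655 counts, so a count of 0 would have allowed up to 0.122 to 0.205 CPM (3 counts, counting error only). CPM is the count relative to the effective library size after trimmed-mean scaling. Trem2 averaged 1.98 ± 0.165 CPM in Trem2-KO mice against 9.19 ± 1.15 CPM in App-KI mice at 3 months, and 3.74 ± 0.110 CPM in Trem2-KO mice against 52.7 ± 2.90 CPM in App-KI mice at 9 months (SD, n = 3 each), which fits the labels. Hippocampal neuron markers were well expressed in every library, with a mean log2 CPM of 7.55 to 7.67 in Trem2-KO mice, against 7.56 to 7.68 in App-KI mice, at 9 months. Choroid plexus markers, which dissection can carry along, varied widely, with a mean log2 CPM of 1.78 to 7.22 over all libraries, and overlapped between the genotypes at each age. Fibroblast markers of the meninges were higher in Trem2-KO mice at 9 months, at a mean log2 CPM of 4.39 to 4.75, against 3.46 to 3.93 in App-KI mice. None of these 9 genes alone passed the test described below. Microglial markers were lower in the same Trem2-KO mice, at 5.57 to 5.64, against 6.52 to 6.59 in App-KI mice. This list of 12 genes includes the deleted Trem2, which adds to that gap. The median log2 fold change of its 12 genes at 9 months was -0.80. In bulk tissue fewer cells of a type and less RNA per cell cannot be told apart.

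The 10 genes covered a wide range of levels. Per kilobase of exon, the mean over all 12 libraries was 586 CPM for Hsp90ab1, 513 for Hspa8 and 239 for Hsp90aa1, followed by 105 for Hspd1, 69.6 for Hsph1 and 56.3 for Dnaja1. Dnajb1 followed with 29.3 CPM per kilobase, then Hspb1 with 10.7, Hspa1b with 6.54 and Hspa1a with 3.30. The constitutive HSP70 and HSP90 genes were thus far above the stress-inducible pair Hspa1a and Hspa1b. By this measure each gene was above the next in all 12 libraries, although the ranges over libraries met for 5 of the 9 pairs of neighbours. Hsp90ab1 covered 529 to 670 and Hspa8 440 to 643 CPM per kilobase. The ranges of Hspa8 and Hsp90aa1, of Hsp90aa1 and Hspd1, of Dnaja1 and Dnajb1, and of Dnajb1 and Hspb1 did not meet. A gene's exon length was the same divisor in every library, so this agreement does not test how far the order depends on the lengths. In mean CPM without that division, Hspa8 (2205) was above Hsp90ab1 (1757), and Hspa1b (18.3) above Hspb1 (11.02). Hsph1 (506) and Dnaja1 (486) were then above Hspd1 (277). The other pairs of neighbours kept their order.

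All 10 genes had lower fitted levels in Trem2-KO than in App-KI mice at both ages, and the difference that passed the test at each age on its own was that of Hspa8. Over all tested genes, 49.3% had a negative change at 3 months and 48.2% at 9 months, and 0.423% and 1.39% were called lower. Averaged over the 2 ages, which uses all 12 libraries, 6 of the 10 genes fell, where 2.54% of all tested genes did. The 6 were Hspa8, Hspa1a, Hsph1, Dnaja1, Hsp90ab1 and Hspb1. The changes called ran from a fold of 0.540 for Hspb1 to 0.895 for Dnaja1. The test throughout is the quasi-likelihood F-test of edgeR, with p-values adjusted over the 19152 genes after Benjamini and Hochberg and called under 0.05. None of the 10 was called for age in either genotype, where 8.7% of all genes were in Trem2-KO and 6.66% in App-KI mice.

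**Figure D1:**
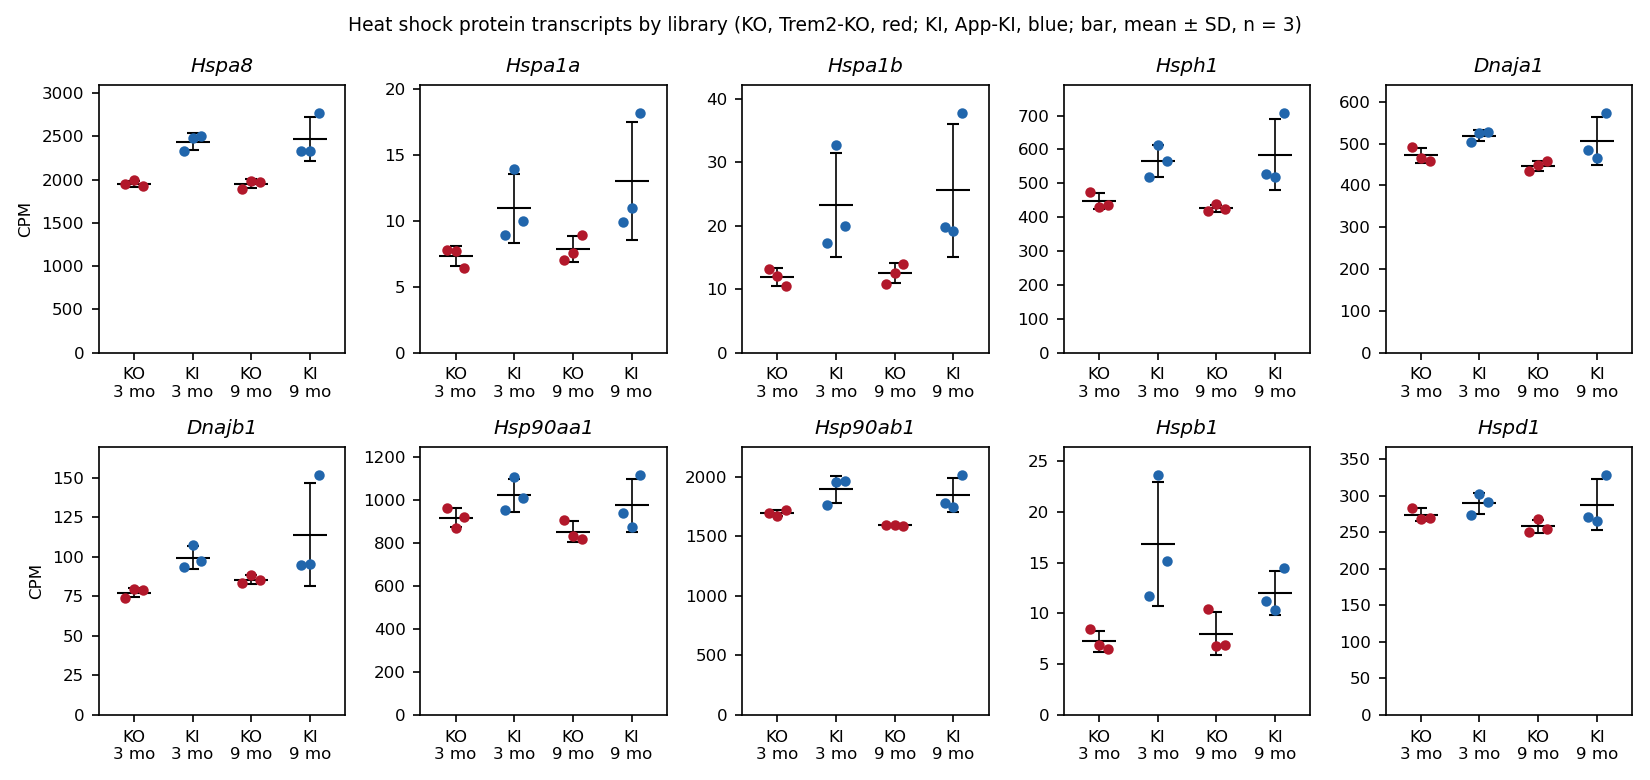
CPM of the 10 heat shock protein genes (vertical axes, from 0) in each of 12 libraries, grouped by genotype and age; points are mice, bars the mean ± SD of 3. Hspa8 stands at 1893 to 1993 CPM in the 6 Trem2-KO mice and at 2327 to 2767 CPM in the 6 App-KI mice.

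Hspa8 encodes HSC70, the constitutive cytosolic HSP70 that also uncoats clathrin vesicles and feeds chaperone-mediated autophagy. At 3 months it had 1946, 1993 and 1922 CPM in Trem2-KO mice, against 2330, 2485 and 2504 CPM in App-KI mice. At 9 months it had 1893, 1987 and 1976 CPM in Trem2-KO mice, against 2328, 2327 and 2767 CPM in App-KI mice. Every Trem2-KO library was below every App-KI library. The log2 fold change was -0.32 ± 0.06 at 3 months (SE, adjusted p = 0.0137), -0.34 ± 0.06 at 9 months (adjusted p = 0.00204) and -0.33 ± 0.04 averaged over ages (adjusted p = 6.16e-05) by the quasi-likelihood test of edgeR with Benjamini-Hochberg adjustment. The 3-month call was lost when any of 5 of the 6 libraries of that age was left out, with an adjusted p of 0.0751 without App-KI replicate 2, 0.0613 without App-KI replicate 3, and 0.0524, 0.0577 and 0.0990 without Trem2-KO replicates 1, 2 and 3, while the fold change stayed between -0.35 and -0.31. At 9 months and averaged over ages the call was kept whichever library was left out.

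Hspa1a and Hspa1b encode the stress-inducible cytosolic HSP70, which cells make in bulk after heat or other protein damage. Hspa1b had 13.2, 12.04 and 10.51 CPM in Trem2-KO mice at 3 months, against 17.3, 32.7 and 20.0 CPM in App-KI mice. At 9 months Hspa1b had 10.9, 12.6 and 14.1 CPM in Trem2-KO mice, against 19.8, 19.1 and 37.7 CPM in App-KI mice. The groups did not overlap at either age, and 1 App-KI library of each age was far above the rest of its group. The log2 fold change of Hspa1b was -0.96 ± 0.33 at 3 months (SE, adjusted p = 0.305), -1.03 ± 0.32 at 9 months (adjusted p = 0.196) and -0.99 ± 0.23 averaged over ages, which edgeR's test did not call (adjusted p = 0.0524). Without App-KI 9-month replicate 3 the change of Hspa1b at 9 months was smaller, -0.64, and not called (adjusted p = 0.351), and the averaged change was -0.80 and called (adjusted p = 0.0311 by edgeR's test).

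Hspa1a had 7.81, 7.74 and 6.46 CPM in Trem2-KO mice at 3 months, against 8.93, 13.9 and 9.999 CPM in App-KI mice. At 9 months Hspa1a had 7.06, 7.57 and 8.96 CPM in Trem2-KO mice, against 9.91, 10.99 and 18.2 CPM in App-KI mice. The genotypes did not overlap within an age, but the lowest App-KI library, at 8.93 CPM, was below the highest Trem2-KO library over both ages. The averaged log2 fold change of Hspa1a was -0.65 ± 0.16 (SE, adjusted p = 0.0383 by edgeR's test), a call that ended when App-KI 3-month replicate 2 or 3 (adjusted p 0.0560 and 0.0606), any Trem2-KO 3-month library (0.0730 to 0.103) or Trem2-KO 9-month replicate 1 or 2 (0.0877 and 0.0900) was left out. The coding sequences of this pair are nearly identical, and the counting of reads that fit both is not described in the labels, which makes the split between them uncertain. Hspa1a took 37.1% to 39.3% of the pair's counts in Trem2-KO libraries, against 29.9% to 36.5% in App-KI libraries, a comparison made after the values were seen. Summed into 1 row, the pair had 17.0 to 23.0 CPM in Trem2-KO libraries, against 26.2 to 55.9 CPM in App-KI libraries, without overlap, and an averaged log2 fold change of -0.87 ± 0.21 that edgeR's test did not call (adjusted p = 0.0660).

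Hsph1 encodes HSP105, an HSP110 protein that exchanges the nucleotide of HSP70. It had 475, 431 and 436 CPM in Trem2-KO mice at 3 months, against 518, 612 and 566 CPM in App-KI mice. At 9 months it had 419, 438 and 423 CPM in Trem2-KO mice, against 527, 520 and 707 CPM in App-KI mice. All 6 Trem2-KO libraries were below all 6 App-KI libraries. The log2 fold change of Hsph1 was -0.34 ± 0.11 at 3 months (SE, adjusted p = 0.240), -0.45 ± 0.11 at 9 months (adjusted p = 0.0611) and -0.40 ± 0.08 averaged over ages (adjusted p = 0.0147) by edgeR's test, the last lost only without Trem2-KO 9-month replicate 1 (adjusted p = 0.0504). Without App-KI 9-month replicate 3, the highest library, Hsph1 was called at both ages, with -0.34 at 3 months (adjusted p = 0.00741) and a smaller change, -0.30, at 9 months (adjusted p = 0.0308).

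The J-domain proteins Dnaja1 and Dnajb1 are HSP40 partners that bring clients to HSP70 and start its ATP hydrolysis. Dnaja1 had 491, 465 and 459 CPM in Trem2-KO mice at 3 months, against 503, 526 and 527 CPM in App-KI mice. At 9 months Dnaja1 had 433, 448 and 458 CPM in Trem2-KO mice, against 484, 465 and 572 CPM in App-KI mice. The gap was narrow, and the averaged log2 fold change of -0.16 ± 0.04 passed edgeR's test (SE, adjusted p = 0.0420) but not with App-KI 3-month replicate 2 or 3, App-KI 9-month replicate 3, Trem2-KO 3-month replicate 2 or 3 or Trem2-KO 9-month replicate 1 or 2 left out (adjusted p 0.0691 to 0.111). Dnajb1, which heat shock factor 1 induces strongly, had 73.9, 79.5 and 78.6 CPM in Trem2-KO mice at 3 months, against 93.5, 107 and 97.2 CPM in App-KI mice. At 9 months Dnajb1 had 83.1, 88.6 and 85.0 CPM in Trem2-KO mice, against 94.8, 95.4 and 151 CPM in App-KI mice. All 6 Trem2-KO libraries were below all 6 App-KI libraries, yet the averaged change of -0.38 ± 0.12 was not called (SE, adjusted p = 0.117 by edgeR's test), with App-KI 9-month replicate 3 far above the rest of its group. Without that library the averaged change of Dnajb1 was -0.26 and was called by edgeR's test (adjusted p = 0.00243).

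The cytosolic HSP90 pair comprises Hsp90aa1, whose product HSP90-alpha is inducible, and Hsp90ab1, whose product HSP90-beta is made constantly. Hsp90ab1 had 1698, 1669 and 1723 CPM in Trem2-KO mice at 3 months, against 1765, 1955 and 1962 CPM in App-KI mice. At 9 months Hsp90ab1 had 1598, 1597 and 1586 CPM in Trem2-KO mice, against 1777, 1746 and 2009 CPM in App-KI mice. No Trem2-KO library reached the lowest App-KI library, 1746 CPM. The log2 fold change of Hsp90ab1 was -0.16 ± 0.06 at 3 months (SE, adjusted p = 0.247), -0.21 ± 0.06 at 9 months (adjusted p = 0.0532) and -0.18 ± 0.04 averaged over ages (adjusted p = 0.00910) by edgeR's test, and the averaged call was kept in all 12 fits with 1 library left out. Hsp90aa1 had 961, 871 and 918 CPM in Trem2-KO mice at 3 months, against 953, 1104 and 1007 CPM in App-KI mice. At 9 months Hsp90aa1 had 907, 832 and 819 CPM in Trem2-KO mice, against 938, 872 and 1114 CPM in App-KI mice. The genotypes overlapped at both ages, and the averaged log2 fold change of Hsp90aa1, -0.17 ± 0.06, was not called (SE, adjusted p = 0.106 by edgeR's test), with a 95% interval of -0.29 to -0.05. It was called without App-KI 9-month replicate 2 (-0.21, adjusted p = 0.0318).

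Hspb1 encodes HSP25, a small heat shock protein that holds unfolded proteins and binds the cytoskeleton. It had 8.43, 6.90 and 6.46 CPM in Trem2-KO mice at 3 months, against 11.7, 23.6 and 15.1 CPM in App-KI mice. At 9 months it had 10.4, 6.76 and 6.89 CPM in Trem2-KO mice, against 11.2, 10.4 and 14.4 CPM in App-KI mice. The groups were apart at 3 months and met at 9 months. The log2 fold change of Hspb1 was -1.21 ± 0.27 at 3 months (SE, adjusted p = 0.0894), -0.57 ± 0.27 at 9 months (adjusted p = 0.394) and -0.89 ± 0.19 averaged over ages (adjusted p = 0.0283) by edgeR's test, the last lost without App-KI 9-month replicate 1 or 3, Trem2-KO 3-month replicate 2 or 3 or Trem2-KO 9-month replicate 2 or 3 (adjusted p 0.0551 to 0.0828). Hspb1 had 123 to 413 counts a library, among the lowest of the 10 genes.

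Hspd1 encodes HSP60, the chaperonin of the mitochondrial matrix, and is the one mitochondrial protein among the 10. It had 284, 268 and 270 CPM in Trem2-KO mice at 3 months, against 274, 303 and 291 CPM in App-KI mice. At 9 months it had 251, 268 and 255 CPM in Trem2-KO mice, against 271, 265 and 327 CPM in App-KI mice. The genotypes overlapped at both ages. Its averaged log2 fold change was -0.12 ± 0.05, the smallest of the 10, and was not called (SE, adjusted p = 0.175 by edgeR's test). Without App-KI 9-month replicate 3 it was -0.067. Its pseudogene Hspd1-ps3 holds 932 counts over all libraries, at most 5.71 CPM in one. The counting of reads that fit both is not described, so the number of shared reads is not known.

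**Figure D2:**
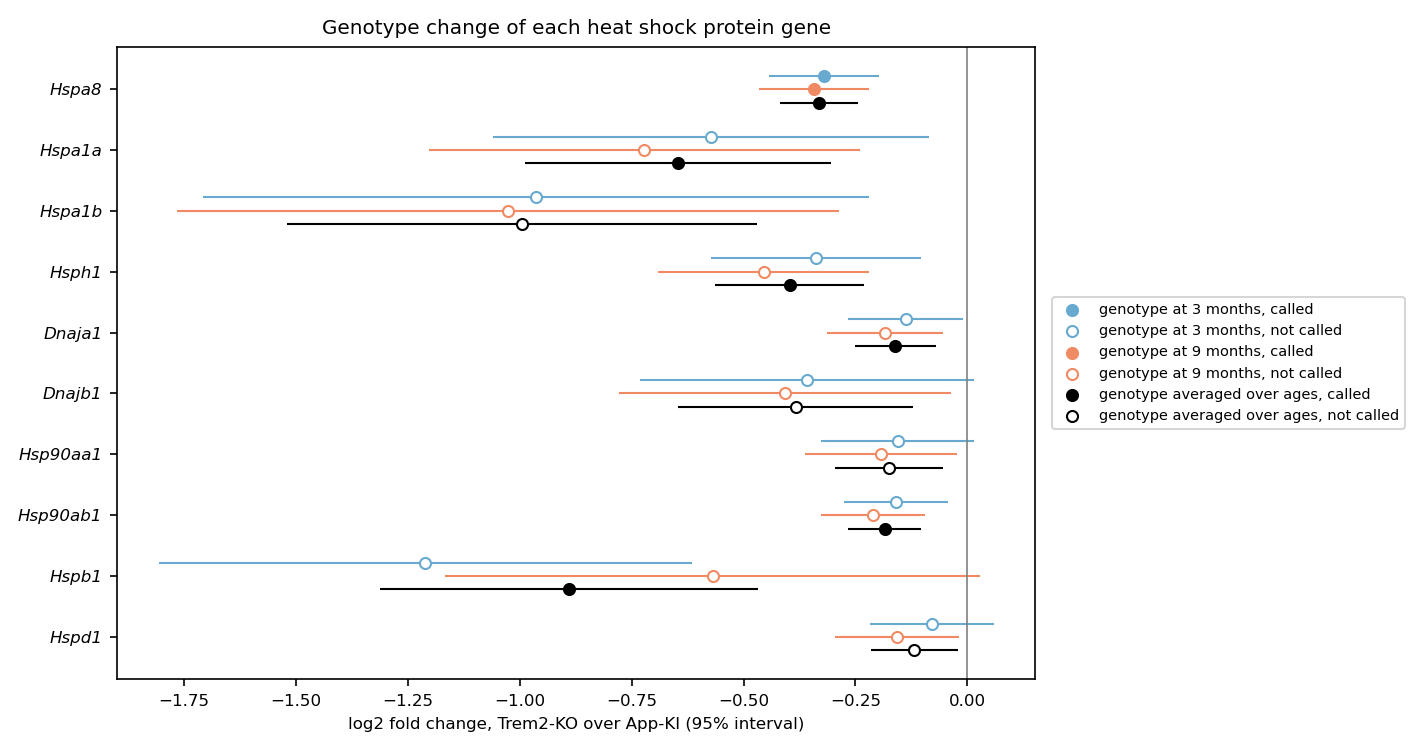
Log2 fold change of Trem2-KO over App-KI (horizontal axis) with its 95% interval for each of the 10 genes at 3 months, at 9 months and averaged over ages; filled points passed edgeR's test. All 30 points lie left of 0, from -1.21 for Hspb1 at 3 months to -0.08 for Hspd1 at 3 months.

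Counted together, 1 of the 10 genes was called lower at 3 months, where 0.423% of all tested genes were. At 9 months 1 of 10 was called lower, where 1.39% of all genes were, and averaged over ages 6 of 10 were, where 2.54% of all genes were. No gene of the 10 was called higher. At an unadjusted p under 0.05, 7 of the 10 were lower at 3 months, against 6.02% of all genes, 9 of the 10 at 9 months, against 6.63%, and 10 of the 10 averaged over ages, against 9.31%. At 3 months 8 of the 10 had every Trem2-KO library below every App-KI library, as did 8.94% of all genes, and at 9 months 7 of the 10 did, as did 9.04% of all genes. Hsp90aa1 and Hspd1 overlapped at both ages, and Hspb1 at 9 months. Over both ages together, 5 of the 10 had all 6 Trem2-KO libraries below all 6 App-KI libraries, namely Hspa1b, Hspa8, Hsp90ab1, Hsph1 and Dnajb1, as did 1.11% of all genes; this count was added after the values were seen. The median log2 fold change of the 10 was -0.33 at 3 months, -0.37 at 9 months and -0.36 averaged over ages, while the median of all tested genes was 0.0028, 0.0066 and 0.0052. With marker scores as covariates the median of the 10 moved in either direction. It was smaller in size at 3 months with the immediate early gene score, at -0.15. The fibroblast score gave -0.11 at 9 months and -0.21 averaged over ages, but -0.36 at 3 months. With the choroid plexus score it was larger in size, at -0.36 at 3 months, -0.40 at 9 months and -0.39 averaged over ages. The sign was negative for all 10 under trimmed mean, size-factor and upper-quartile scaling.

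Individual mice differed in the whole group of genes at once. App-KI 9-month replicate 3 was the highest library for 9 of the 10 genes, and App-KI 3-month replicate 2 for the other, Hspb1. The lowest library was a Trem2-KO one for all 10. Without App-KI 9-month replicate 3 the median change at 9 months was -0.20 in place of -0.37, all 10 changes were still negative, and 2 were called, those of Hspa8 and Hsph1. The 9-month changes of Hspa1a, Hsp90aa1, Dnaja1, Dnajb1 and Hspd1 were then -0.41, -0.09, -0.09, -0.15 and -0.06, against -0.72, -0.19, -0.18, -0.41 and -0.16 with all libraries. In the mean standardised level of the 10 genes, the 6 Trem2-KO libraries took ranks 1 to 6 from the bottom. The SD of log2 CPM over the 3 mice was smaller in Trem2-KO than in App-KI mice for 9 of the 10 genes at each age, with a median of 0.0637 in Trem2-KO and 0.105 in App-KI mice at 3 months, and of 0.0488 in Trem2-KO and 0.215 in App-KI mice at 9 months. Over all tested genes the SD was smaller in Trem2-KO mice for 49.7% at 3 months and 46.2% at 9 months. This comparison of spreads was made after the values were seen and rests on 3 mice a group.

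**Figure D3:**
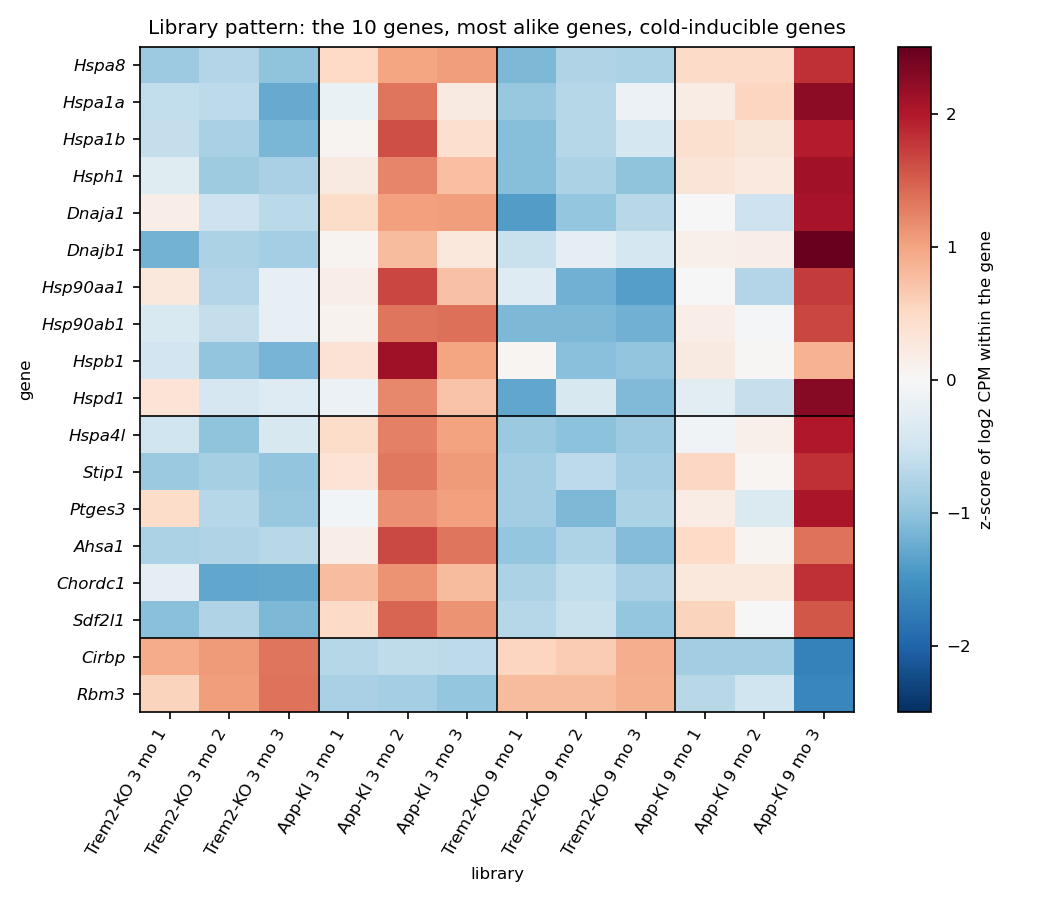
Standardised log2 CPM (colour, in SD units over the 12 libraries) of the 10 genes, the 6 most alike genes and the cold-inducible genes (rows) in each library (columns). The 10 genes are highest in App-KI 9-month replicate 3 apart from Hspb1, and lowest in Trem2-KO libraries.

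Age was tested as 9 over 3 months within each genotype. In Trem2-KO mice none of the 10 genes changed by edgeR's test, where 8.7% of all genes were called, and in App-KI mice none did, where 6.66% of all genes were called. None had an unadjusted p under 0.05 in either genotype, where 22.7% of all genes in Trem2-KO and 17.1% in App-KI mice did, and DESeq2 called none. The log2 fold changes ran from -0.11 for Hsp90aa1 to 0.16 for Hspb1 in Trem2-KO mice and from -0.48 for Hspb1 to 0.25 for Hspa1a in App-KI mice. The log2 fold change of Hspa8 with age was -0.0013 in Trem2-KO mice (95% interval -0.12 to 0.12) and 0.020 in App-KI mice (-0.10 to 0.14). In Trem2-KO mice 2 of the 10 genes had all libraries of 9 months below those of 3 months, as did 11.9% of all genes, and 1 had them above, as did 13.5%. Hsp90ab1 had 1586 to 1598 CPM at 9 months, against 1669 to 1723 CPM at 3 months, in Trem2-KO mice, and Dnaja1 433 to 458 CPM against 459 to 491 CPM. Dnajb1 was the gene above, with 83.1 to 88.6 CPM at 9 months and 73.9 to 79.5 CPM at 3 months. The lack of a call does not show that levels were equal at both ages.

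The difference between the genotype change at 9 months and that at 3 months was tested as an interaction. None of the 10 genes passed edgeR's test, none had an unadjusted p under 0.05, and DESeq2 called none, where edgeR called 0.266% of all genes and 6.04% had an unadjusted p under 0.05. For Hspa8 the interaction was -0.02 (95% interval -0.20 to 0.15, log2). For Hspb1, whose genotype change was -1.21 at 3 months and -0.57 at 9 months, it was 0.64 (-0.20 to 1.49). That interval spans both signs and also holds large differences, so its 2 changes were shown neither to differ nor to be alike.

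Partners of these chaperones were grouped by role, with the change averaged over ages in each case. Of all tested genes 2.54% were called lower in that comparison. Among 7 other HSP70 and HSP110 genes 1 fell, Hspa4l, an HSP110 relative, by 0.31 ± 0.06 on the log2 scale (SE, adjusted p = 0.00884 by edgeR's test); the median of this list was -0.03. Hspa12a, Hspa4 and Hspa14 were not called, at -0.03, -0.06 and 0.11. Among 11 other cytosolic J-domain genes 2 fell, Dnajb2 (log2 fold change -0.24 ± 0.04) and Dnaja4 (-0.31 ± 0.05), while the abundant Dnajc5, which acts at synaptic vesicles, and Dnaja2 stood at -0.03 and 0.0039, and the list's median was -0.01.

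Of 15 co-chaperones of HSP90 and HSP70, 6 fell, against 2.54% of all genes, and none rose. The 6 were Stip1, Fkbp4, Ahsa1, Chordc1, Ahsa2 and St13. Stip1 encodes HOP, which links HSP70 to HSP90, and had a log2 fold change of -0.40 ± 0.08 at 3 months (SE, adjusted p = 0.0320) and -0.35 ± 0.08 at 9 months (adjusted p = 0.0279) by edgeR's test. Fkbp4, the immunophilin FKBP52, fell at both ages as well, by 0.33 ± 0.07 at 3 months and 0.33 ± 0.07 at 9 months, and so did Ahsa1, the activator of the HSP90 ATPase, by 0.32 ± 0.06 and 0.28 ± 0.06 on the log2 scale. Ptges3, the HSP90 co-chaperone p23, and Ppid, cyclophilin 40, were not called, at -0.12 and -0.09. The median of the 15 was -0.09, so that most of the list moved less than its called genes, and without App-KI 9-month replicate 3 the count of fallen genes was 4 in place of 6.

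Other branches of the chaperone system showed few calls in the change averaged over ages. None of 6 nucleotide exchange factors was called, with Bag2 at -0.13, Bag3 at -0.16, Bag1 at 0.04 and Bag4 at 0.05, and none had an unadjusted p under 0.05. Of 8 other small heat shock proteins 4 were tested, and Hspb6 rose by 0.42 ± 0.12 (SE, adjusted p = 0.0446 by edgeR's test), a call absent without App-KI 9-month replicate 3, while Cryab, alpha-B-crystallin, Hspb8 and Hspb11 stood at -0.25, -0.06 and 0.19 and were not called. None of 12 mitochondrial chaperones and proteases was called, though 4 had an unadjusted p under 0.05, as did 3452 of the 19152 tested genes. Of the 12 values 2 were negative. The median of the 12 was 0.07, with the proteases Afg3l2 and Clpp at 0.09 and 0.11. Hspa9, the mitochondrial HSP70, stood at 0.05 and Dnaja3, its J-domain partner, at 0.01. Hspe1, the HSP10 partner of Hspd1, stood at -0.23. Of the 8 subunits of the cytosolic chaperonin CCT, Cct4 was called (-0.15 ± 0.04, a call absent without App-KI 9-month replicate 3). Cct3, Cct6a and Cct8 stood at -0.10, -0.06 and -0.03 uncalled. The median was -0.06 with all 8 values negative, as were 48.5% of the values of all tested genes.

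Transcripts of the heat shock factors themselves did not pass the test. Hsf1, the main stress factor, stood at -0.03 ± 0.04 and Hsf2 at 0.14 ± 0.08 in log2 fold change averaged over ages, Hsf4 and the factor-binding Hsbp1 stood at -0.02 and 0.02, and none of the 4 tested genes of the list had an unadjusted p under 0.05. Among 14 other genes listed as heat shock factor 1 targets 5 fell, against 2.54% of all genes, and none rose. The median of the 14 was -0.20. Of the 14, 8 also stand in the lists above, and the 5 are Hspa4l, Chordc1, Fkbp4, Stip1 and Ahsa1 again. The activity of heat shock factor 1, which is set mainly after translation, was not measured.

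**Figure D4:**
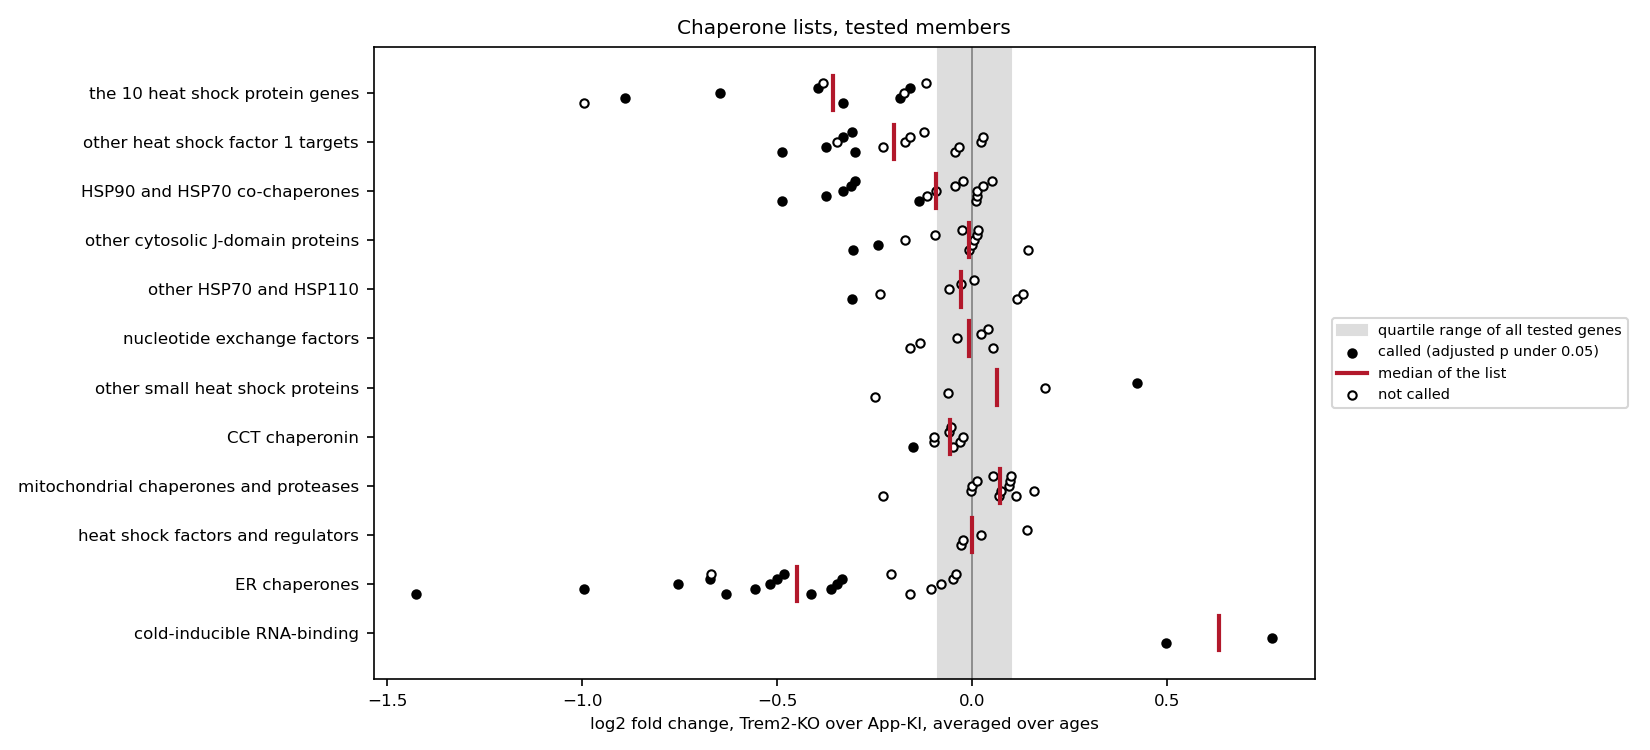
Log2 fold change of Trem2-KO over App-KI averaged over ages (horizontal axis) for each tested gene of the 10 and of 11 related lists (rows); filled points passed edgeR's test, red bars are list medians, and the grey band holds the range between the quartiles of all tested genes. The median of the 10 lies at -0.36, that of the co-chaperones at -0.09 and that of the mitochondrial list at 0.07.

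The genes whose log2 CPM followed the mean standardised level of the 10 most closely over the 12 libraries, among 11026 genes at an average log2 CPM of 3 or more, were Hspa4l (Pearson r = 0.977), Stip1 (0.970), Ptges3 (0.948), Ahsa1 (0.946), Chordc1 (0.945) and Sdf2l1 (0.940), the last of the endoplasmic reticulum. The libraries share genotype and age, so the coefficients describe these 12 and carry no test. Hspa4l had 158 to 171 CPM in Trem2-KO mice, against 192 to 213 CPM in App-KI mice, at 3 months, and 157 to 160 CPM in Trem2-KO mice, against 178 to 235 CPM in App-KI mice, at 9 months.

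Chaperones of the endoplasmic reticulum, which the unfolded protein response and not the heat shock response controls, are the nearest group for comparison. Of 20 such genes 13 fell in the average over ages, with a median log2 fold change of -0.45, against 6 of the 10 heat shock protein genes at -0.36. Of all tested genes 2.54% fell. The difference between the lists was not tested. Calr, the calreticulin gene, and Pdia6 fell by 0.52 ± 0.05 and 0.67 ± 0.07 on the log2 scale, while Canx and P4hb were not called, at -0.11 and -0.05. The cold-inducible RNA-binding proteins were higher in Trem2-KO mice. Cirbp averaged 76.3 ± 4.76 CPM in Trem2-KO mice against 44.9 ± 0.545 CPM in App-KI mice at 3 months, and 67.3 ± 3.93 CPM in Trem2-KO mice against 39.3 ± 5.34 CPM in App-KI mice at 9 months (SD, n = 3 each). Its log2 fold change was 0.77 ± 0.08 at 3 months (SE, adjusted p = 2.46e-05) and 0.77 ± 0.08 at 9 months (adjusted p = 4.21e-06) by edgeR's test, and Rbm3 rose by 0.52 ± 0.07 and 0.48 ± 0.07. Cirbp and Rbm3 rose at each age while no heat shock protein gene did.

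Several marker lists moved with the genotypes. The summed level of the 9 meningeal and perivascular fibroblast genes was 268 to 371 CPM in Trem2-KO mice, against 201 to 226 CPM in App-KI mice at 9 months, and none of the 9 was at 0. None of the 9 was called at 9 months by edgeR's test. An unadjusted p under 0.05 was found for 7 of the 9, and for 2613 of the 19152 tested genes. With that list's score as a covariate the change of Hspa8 at 9 months was -0.15 and not called (adjusted p = 0.760 by edgeR's test). In all, 28 genes were called at 9 months in place of 398. That score did not overlap between the genotypes at 9 months, so the fit had little left to compare there. The averaged change of Hspa8 kept its call in that fit, the one call left of 6. The 12 microglial genes, Trem2 among them, summed to 879 to 950 CPM in Trem2-KO mice, against 1556 to 1664 CPM in App-KI mice, at 9 months. At 3 months they summed to 547 to 571 CPM in Trem2-KO mice, against 582 to 609 CPM in App-KI mice. Astrocyte markers at 9 months had a mean log2 CPM of 8.76 to 8.89 in Trem2-KO mice, against 8.91 to 9.01 in App-KI mice. Endothelial markers were lower in Trem2-KO mice at 3 months, with a mean log2 CPM of 4.56 to 4.71, against 4.75 to 4.80 in App-KI mice, and higher at 9 months, when their summed level was 310 to 323 CPM in Trem2-KO mice, against 250.3 to 274 CPM in App-KI mice. None of the 8 astrocyte or 8 endothelial genes was at 0. Of 20 immediate early genes, which are transcribed within minutes of a stimulus, 16 had a negative change at 3 months, with a median log2 fold change of -0.14 and 1 gene called lower. Over all tested genes 49.3% had a negative change at 3 months and 48.2% at 9 months, and 0.423% were called lower at 3 months. At 9 months 12 of the 20 immediate early genes had a negative change, with a median of -0.05 and none called. Their mean log2 CPM at 3 months was 5.06 to 5.19 in Trem2-KO mice, against 5.17 to 5.39 in App-KI mice, and their summed level 1141 to 1259 CPM in Trem2-KO mice, against 1248 to 1416 CPM in App-KI mice. With their score as a covariate the 3-month change of Hspa8 was -0.24 and not called (adjusted p = 0.278 by edgeR's test), and 18 genes in all were called in place of 113. The averaged change of Hspa8 kept its call in that fit. The part of these cell types and genes in the changes of the heat shock protein genes was not tested apart from these fits.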

How the data were processed

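RNA was sequenced from 12 hippocampi, 3 a group. The authors deposited raw read counts per gene without normalisation, as the values show; the SMART-Seq mRNA LP kit is named per the labels' protocols, and STAR 2.7.10a, featureCounts 2.0.3, R 4.2.0, DESeq2 1.36.0 and the build GRCm39 per the submitters' processing notes. The sources used here name no annotation release, strand setting or rule for multiply mapping reads. Symbols and exon lengths came from GENCODE M21 (GRCm38), which matched 52073 of 56980 rows; unmatched rows hold at most 0.252% of a library. No coordinate of the count table is printed, and those given are of the RefSeq promoter table.

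Genes passing filterByExpr (minimum count 10, minimum total 15) were fitted with edgeR 4.0.16 (limma 3.58.1, R 4.3.3): trimmed mean of M-values scaling, 1 term per group over 12 libraries, 8 residual degrees of freedom, robust quasi-likelihood F-test, Benjamini-Hochberg adjustment over 19152 genes, called at 0.05. SE is the absolute log2 fold change divided by the square root of F, and 95% intervals use the fit's total degrees of freedom. The procedure was also run on simulated counts, drawn independently for each gene. These counts lack shifts shared by many genes of a library, and their outcome is not used here. Each library has its own mouse identifier, so replicates are mice. Alternatives were DESeq2 1.42.0, limma-voom, other scalings, no filter, fewer libraries, marker scores as covariates and Hspa1a summed with Hspa1b.

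The 10 genes and the other lists were chosen with earlier results of these data known, as were the tests. Of each list the 2 genes with the smallest p averaged over ages and up to 2 abundant uncalled ones are named, with the 6 most alike genes and both cold-inducible ones; Ahsa2, St13 and Hspe1 were named outside that rule, after their values were seen.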

Additional observations from a re-analysis of the deposited data

How the results depend on the processing

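All 10 genes stayed lower in Trem2-KO mice under every scaling, tool, filter and left-out library tried, in both ages and their average. With marker scores as covariates 4 values changed sign: Hspd1 at 3 months to 0.021 with the immediate early gene score, Dnajb1 and Hspd1 at 9 months to 0.089 and 0.028 with the meningeal and perivascular fibroblast score, and Hspd1 at 9 months to 0.0010 with the microglia score; the cause was not tested.

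The number of the 10 genes called moved with the settings, as did the share of all tested genes called in either direction, which follows each count in brackets. Called lower in the main fit were 0.423% of all genes at 3 months, 1.39% at 9 months and 2.54% averaged over ages. The number of tested genes also differed between settings, with 19152 in the main fit, 38139 without a filter and 15217 to 16696 with DESeq2. At 3 months, against 1 (0.59%), it was 4 without a filter (0.91%), 2 with the choroid plexus score (0.935%), 0 with the immediate early gene score (0.094%, median -0.15), 3 with DESeq2 (1.64%), 3 with only the groups compared (1.19%) and 0 to 3 with 1 library left out (0.134% to 0.783%). At 9 months, against 1 (2.08%), it was 2 with upper-quartile scaling (2.08%), 6 without a filter (2.18%), 0 with the meningeal score (0.146%, median -0.11), 3 with the choroid plexus score (2.72%), 4 with the immediate early gene score (2.2%), 5 with DESeq2 (3.23%), 2 with limma-voom (1.99%) and 1 to 3 with 1 library left out (0.89% to 2.83%, medians -0.46 to -0.20). Averaged over ages, against 6 (4.14%), it was 7 without a filter (3.06%), 1 with the meningeal score (0.762%, median -0.21), 8 with the choroid plexus score (3.98%), 3 with the immediate early gene score (1.96%), 9 with DESeq2 (6.45%), 4 with limma-voom (3.84%) and 3 to 7 with 1 library left out (2.33% to 4.73%); 3 were called without Trem2-KO 3-month replicate 2 or 3 or Trem2-KO 9-month replicate 1 or 2. For age, 1 gene was called in App-KI mice with the immediate early gene score, and with the meningeal score the median was 0.18 for age in Trem2-KO mice and 0.17 for the interaction. A microglia score as covariate, added after seeing the data, left 0 of the 10 called in each genotype comparison and 0 of all genes. That score contains Trem2 and separates the genotypes, so the fit has little left to compare. The meningeal score also separates the genotypes at 9 months, though not at 3 months.

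No paired analysis was possible because the replicate numbers follow accession order and the labels pair no mice across groups. The smallest difference that 3 mice a group could show was not estimated, and size alone did not set the calls averaged over ages. Dnaja1 at -0.16 was called by edgeR's test (adjusted p = 0.0420). Hspa1b at -0.99 (adjusted p = 0.0524), Dnajb1 at -0.38 (0.117) and Hspd1 at -0.12 (0.175) were not called by that test. The genes of lowest mean CPM, Hspa1a and Hspb1, rest on 114 to 413 counts a library.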
